A study of Mus musculus with 16 samples.

Results

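Hearts that lacked both Rbpj in the mesoderm and Axin2 were compared with hearts that lacked mesodermal Rbpj alone, on the 4 DKO and 3 KO arrays of a series of 16. Members were the samples titled DKO1 to DKO4 and KO1 to KO3, 7 arrays in all. DKO hearts carried MesP1-cre:RBPJlox/lox//Axin2-/- and KO hearts carried MesP1-cre:RBPJlox/lox, so the mesodermal Rbpj deletion was common to both groups and the Axin2-/- genotype was what the labels set between them; the KO label lists no Axin2 allele. The other groups used beside them were 2 DKOhet arrays (MesP1-cre:RBPJlox/lox//Axin2+/-), 3 hetDKO arrays (MesP1-cre:RBPJlox/+//Axin2-/-, in which 1 Rbpj allele was floxed) and 4 control arrays labelled wild type. Every sample was a whole embryonic heart preparation from mice of a mixed C57/BL6;129Ola background at E9.25, with 22 to 24 somites, and no treatment was given in the labels. The labels do not say whether each array held 1 embryo or a pool, so the p-values measure the spread between these arrays, which may be partly technical. MesP1-cre recombines in the early mesoderm that gives rise to heart muscle, endocardium and much of the vasculature, so cells of other origin in a heart keep Rbpj, whereas Axin2-/- is written with no Cre condition. No probe with the symbol Rbpj, Axin2 or Mesp1 was on the table (0 each), so neither deletion was checked on these arrays.

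Rbpj is the DNA-binding protein through which Notch receptors switch on their target genes. Axin2 is a scaffold of the complex that marks beta-catenin for destruction, and it is itself switched on by Wnt signalling, so that it works as a negative feedback on the canonical Wnt pathway. In the embryonic heart, Wnt activity favours proliferation of progenitors and is lowered as heart muscle differentiates, and Notch acts in the endocardium to pattern the chambers and the valve cushions.

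Each array gave bead intensities for 25696 probes, of which 14058 were kept because their detection p was under 0.05 on at least 2 of the 16 arrays. Between 12360 and 13196 probes were detected per array. Values below are background-corrected, quantile-normalised log2 signals, so a difference of 1 is a doubling, and no probe's level is compared with that of another probe. The heart muscle markers Actc1, Myl7, Myh6, Myh7 and Nkx2-5 were detected on all 4 DKO and all 3 KO arrays. Actc1, cardiac actin, averaged 14.84 ± 0.38 in DKO hearts (SD, n = 4) and 14.83 ± 0.68 in KO hearts (SD, n = 3). Myl7, the atrial myosin light chain, averaged 14.52 ± 0.29 in DKO hearts and 14.38 ± 0.63 in KO hearts. Nkx2-5 averaged 9.70 ± 0.51 and 9.63 ± 0.62, and Myh7 9.02 ± 0.56 and 8.61 ± 0.40. The endocardial marker Emcn averaged 11.74 ± 0.12 in DKO hearts and 11.79 ± 0.28 in KO hearts. The endoderm marker Foxa2 was detected on 0 of the 4 DKO arrays and on 1 of the 3 KO arrays. The gut and hepatic endoderm markers Ttr, Afp and Apoa2 were detected on all 4 DKO and all 3 KO arrays. Ttr averaged 9.93 ± 0.32 in DKO hearts and 10.18 ± 0.64 in KO hearts. Of the neural markers, Sox2 was detected on all 4 DKO and all 3 KO arrays, and Tubb3 on 1 array of each group. Sox2 averaged 7.86 ± 0.65 in DKO hearts and 8.30 ± 0.51 in KO hearts. On the first principal axis of all kept probes (28.2% of the variance), DKO arrays scored 12.4 to 30.1 and KO arrays 10.8 to 22.5, against -24.4 to -21.2 for hetDKO and -29.2 to -23.1 for control.

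KO replicate 2 stood apart. On the third component, with 11.6% of the variance, it lay at 45.8, while the other 15 arrays lay between -13.2 and 15.9. Genes that were brighter on it than on the mean of the other KO arrays included 7 placental or blood genes named here after their values were seen. Prl2c3, a placental prolactin, read 14.69 on KO replicate 2, against 11.17 and 8.72 on KO replicates 1 and 3. Prl3d3, from the same family, read 13.56 on KO replicate 2, against 10.03 on replicate 1 and 7.85 on replicate 3. The mean over the 7 kept placental prolactin probes was 7.94, 10.70, 7.11 and 8.44 on the DKO arrays and 9.56, 12.32 and 7.95 on the KO arrays, and it lay between 7.04 and 10.15 on the other 9 arrays. KO replicate 2 was therefore the highest of all 16 on that mean, with DKO replicate 2 next. Hbb-bt, an adult beta globin, read 13.10 on KO replicate 2, against 8.28 and 6.09 on the other KO arrays. Lyz2, the lysozyme of macrophages and granulocytes, read 9.78 there, against 6.11 and 5.52, S100a8, a granulocyte protein, read 11.43, against 7.85 and 5.84, and Rhox6 and Rhox9, homeobox genes of the placenta, read 10.85 and 12.50. What part this RNA had in the differences below was not tested. The probe counts, the medians of the Wnt, muscle, matrix and blood lists and some single genes are also given without KO replicate 2. Many single genes are given with all KO arrays only.

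Few probes separated DKO from KO hearts. In limma's moderated test over all 16 arrays, with Benjamini-Hochberg adjustment over the 14058 kept probes, 2 probes (0.0142%) passed an adjusted p of 0.05, both higher in DKO hearts, and 0 (0%) were lower. At an unadjusted p under 0.05, 705 probes (5.01%) stood out, 380 higher (2.7%) and 325 lower (2.31%) in DKO hearts, and arrays did not overlap for 339 probes that were higher (2.41%) and 349 that were lower (2.48%). In simulated data over 14058 probes, the same number of arrays recovered 20% of changes of 0.5 on the log2 scale, 70% of 1 and 94% of 2. Those data had independent noise and 50 planted changes of each size, and 139 probes were called, against 2 here. Recovery in the real data can therefore be lower. A change under a doubling could often be missed, and larger changes could be missed too. For scale, 1853 probes (13.2%) passed the adjusted threshold between the 4 DKO and 4 control arrays, 6.68% higher and 6.5% lower. Between the 3 KO and 4 control arrays 1061 (7.55%) passed, 3.59% higher and 3.96% lower. The array numbers differ, so these counts do not rank the 2 changes by size. When KO replicate 2 was left out, 1 probe (0.00711%) passed between DKO and KO hearts, and 363 (2.58%) had an unadjusted p under 0.05, 1.23% higher and 1.35% lower.

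The probe with the strongest difference was for Mrpl10, a protein of the mitochondrial ribosome. It read 12.27, 12.20, 12.19 and 12.22 on the DKO arrays and 10.17, 10.25 and 10.01 on the KO arrays. The groups were far apart and each was tight, with means of 12.22 ± 0.032 in DKO hearts (SD, n = 4) and 10.14 ± 0.13 in KO hearts (SD, n = 3), a difference of 2.08 (standard error 0.17, adjusted p = 5.08e-05 in limma, all 4 DKO arrays higher). The difference was 2.13 without KO replicate 2. The hetDKO hearts read 12.45, 12.46 and 12.52 and the control hearts 12.46, 11.74, 12.48 and 12.24, so it was the KO hearts that stood low (KO minus control -2.09). The 2 DKOhet arrays, with 1 Axin2 copy, read 11.40 and 11.93, between the KO arrays and the DKO arrays. A second Mrpl10 probe did not follow: it read 12.59 to 12.77 in DKO hearts and 13.01 to 13.21 in KO hearts, a difference of -0.43 (adjusted p = 0.976 in limma).

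Lsm12, an RNA-binding protein of the LSM family, was the other probe past the threshold. It read 9.61, 10.35, 9.41 and 10.30 in DKO hearts and 7.73, 6.59 and 6.36 in KO hearts, where it was detected on 2 of 3 arrays. The groups did not overlap, and the difference was 3.02 (standard error 0.44, adjusted p = 0.0434 in limma). The adjusted p was 0.258 with the array number as a replicate block, 0.0851 with beadchip as a block and 0.14 when only DKO and KO arrays were fitted, so the call was lost in each. Leaving out any 1 array other than KO replicate 1 took the adjusted p past 0.05, to between 0.0695 and 0.309, while the difference stayed between 2.76 and 3.44 over all 7 omissions. The hetDKO hearts read 10.32, 10.55 and 10.05 and the control hearts 10.24, 8.25, 10.09 and 9.85, so here too KO hearts stood low (KO minus control -2.72, adjusted p = 0.0026 in limma). On the 2 DKOhet arrays Lsm12 read 9.02 and 9.66, above all KO arrays and within the control range. The other 3 Lsm12 probes did not follow, with differences of 0.32, 0.07 and -0.04 between DKO and KO hearts.

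Scrn2, a member of the secernin family, came next without passing the threshold. It read 8.45, 8.57, 8.55 and 8.56 in DKO hearts and 7.65, 7.69 and 7.33 in KO hearts, a difference of 0.98 (adjusted p = 0.0699 in limma), and the KO minus control difference was -0.93 (adjusted p = 0.003 in limma). On the 2 DKOhet arrays Scrn2 read 8.40 and 8.56, above all KO arrays and close to the DKO arrays.

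These 3 genes lie on chromosome 11, as Axin2 does, within 12 Mb of its start in the GRCm38.p6 annotation: Lsm12 6.76 Mb, Mrpl10 11.9 Mb and Scrn2 11.9 Mb before it. A window of 15 Mb on either side of Axin2 was drawn after this was seen. It held 446 kept probes. With the 3 probes that prompted the window included, 15 of the 446 (3.36%) had an unadjusted p under 0.01 in DKO against KO hearts. The rest of chromosome 11 had 4 such probes of 705 (0.567%), all other placed probes 99 of 12082 (0.819%), and all kept probes 128 (0.911%). Of the 30 probes with the smallest p, 8 were on chromosome 11, all 8 in the window, and the chromosome held 8.7% of the 13233 placed probes. With KO replicate 2 left out the window had 13 such probes (2.91%), against 44 (0.364%) among all other placed probes. Between hetDKO and control hearts it had 3 (0.673%), against 78 (0.646%), and between KO and control hearts 71 (15.9%), against 1395 (11.5%).

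The window's members ran in both directions, and probes of 1 gene could oppose each other. Sp6, a zinc finger transcription factor, had a probe at 9.64, 9.59, 9.44 and 9.56 in DKO hearts and 8.35, 8.12 and 8.77 in KO hearts (difference 1.15), and another at 8.34, 8.33, 7.94 and 7.99 in DKO hearts and 9.12, 9.14 and 8.90 in KO hearts (difference -0.91). Mrpl45, a further protein of the mitochondrial ribosome, read 6.87, 7.13, 7.36 and 6.65 in DKO hearts and 8.36, 8.16 and 8.46 in KO hearts (difference -1.33). Wnt9b, a Wnt ligand, had 1 probe 1.02 higher and a second 0.74 higher in DKO hearts, with no overlap on either. Med1, a Mediator subunit, differed by 0.55 (and by -0.04 on another probe), Map3k3, a kinase, by 0.53, Hoxb3 by 0.83 (0.03 on another probe) and Pitpnc1, a lipid transfer protein, by 0.75, while Kif18b, a mitotic kinesin, differed by -0.48 (and by 0.34 and 0.08 on other probes) and Hrob, a DNA repair factor, by -0.42. None of these 9 genes passed the adjusted threshold (adjusted p 0.658 or above in limma). The labels give a mixed C57/BL6;129Ola background and no genotype of the neighbourhood of Axin2, so Axin2 loss and the strain of the surrounding chromosome cannot be told apart here.

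**Figure D1:**
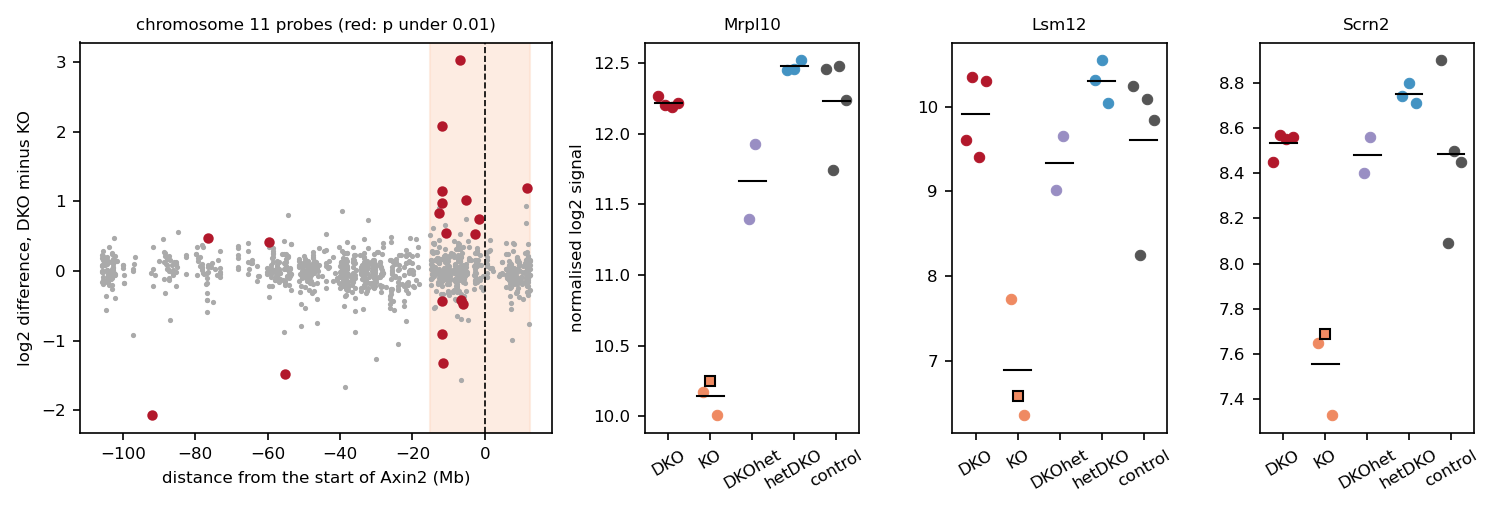
Left, the DKO minus KO log2 difference of each kept chromosome 11 probe against its distance from the start of Axin2 in Mb, with the window of 15 Mb shaded and probes with an unadjusted p under 0.01 in red. Right, the normalised log2 signal of Mrpl10 (ILMN_2822622), Lsm12 and Scrn2 on every array by group (points; square, KO replicate 2; bar, group mean): the KO arrays lie below all others.

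Wnt target genes, read as signs of canonical Wnt activity, were set against the loss of a Wnt feedback inhibitor. Of 28 listed genes, 15 were measured, and none passed the adjusted threshold (0 of 15, against 0.0142% of all kept probes). At an unadjusted p under 0.05, 8 of 15 had more signal in DKO hearts and 0 had less, against 2.7% and 2.31% of all kept probes. The median difference of the list was 0.53, beside 0.01 over all kept probes, and 14 of 15 were positive. The median was 0.39 without KO replicate 2, 12 of 15 were positive and 3 had an unadjusted p under 0.05 (Nkd2, Tnfrsf19 and Sp5). The mean of the list on each array was 9.08, 8.81, 9.27 and 8.86 in DKO hearts and 8.70, 8.23 and 8.65 in KO hearts, which did not overlap. Within beadchip 1 the median was 0.54 and within beadchip 2, with a single KO array, 0.58. Leaving out DKO replicate 1 or DKO replicate 3 lowered the 8 genes to 5.

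RefSeq promoter windows, 250 bases before to 50 after a start in GRCm38.p6, were found for 10 of the 15 measured genes. The core letters bound by the TCF and LEF factors through which beta-catenin acts, CTTTGA or on the other strand TCAAAG, occurred in windows of 5 of these 10 genes (50%), against 4911 of 27025 genes in the table (18.2%). Counted by window, 5 of the 16 windows of these genes held the letters, against 5257 of 32851 (16%). The windows of Sp5 and Dkk1, with such letters, and of Nkd2, without, are shown with the letters in capitals, since all 3 genes are described next.
Sp5 (chr2:70474673-70474972, plus strand): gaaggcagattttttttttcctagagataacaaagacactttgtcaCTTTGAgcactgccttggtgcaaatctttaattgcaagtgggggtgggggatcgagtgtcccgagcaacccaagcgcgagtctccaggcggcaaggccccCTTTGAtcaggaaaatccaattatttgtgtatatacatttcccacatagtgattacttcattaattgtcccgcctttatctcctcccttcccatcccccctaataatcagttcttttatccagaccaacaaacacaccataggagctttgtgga
Dkk1 (chr19:30549447-30549746, minus strand): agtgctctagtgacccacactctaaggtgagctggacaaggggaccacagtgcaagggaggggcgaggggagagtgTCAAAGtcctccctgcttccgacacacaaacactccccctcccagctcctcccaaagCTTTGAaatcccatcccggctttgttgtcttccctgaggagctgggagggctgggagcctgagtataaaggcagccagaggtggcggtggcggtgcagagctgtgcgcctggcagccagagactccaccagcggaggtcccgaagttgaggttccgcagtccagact
Nkd2 (chr13:73847582-73847881, minus strand): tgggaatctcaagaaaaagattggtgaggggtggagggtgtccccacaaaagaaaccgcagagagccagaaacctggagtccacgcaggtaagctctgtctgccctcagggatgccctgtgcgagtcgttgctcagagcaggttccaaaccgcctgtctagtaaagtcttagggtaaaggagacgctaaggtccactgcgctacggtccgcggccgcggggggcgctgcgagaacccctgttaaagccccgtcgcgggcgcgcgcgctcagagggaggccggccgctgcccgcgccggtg
A match of these letters is a description and no evidence of binding.

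Nkd2, a cytoplasmic Wnt inhibitor induced by the pathway, had the smallest p of the list. It read 9.04, 9.46, 9.82 and 9.26 in DKO hearts and 8.85, 8.60 and 8.87 in KO hearts. The groups did not overlap, and the difference was 0.62 (standard error 0.19, adjusted p = 0.976 in limma). DKO minus control was -0.25 and KO minus control -0.87 (adjusted p = 0.0147 in limma for the second), so the difference between DKO and KO was 71.4% of the size of the KO change. Sp5, a zinc finger repressor and direct target, read 12.15, 11.53, 11.41 and 12.01 in DKO hearts and 11.23, 11.07 and 10.99 in KO hearts, again without overlap. Its difference was 0.68 (0.67 without KO replicate 2), and DKO hearts lay 0.99 above control (adjusted p = 0.0065 in limma).

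Notum, an enzyme that inactivates secreted Wnt ligands, read 8.60, 8.08, 9.08 and 8.24 in DKO hearts, against 7.87, 6.41 and 7.65 in KO hearts. The groups did not overlap, the difference was 1.19 and it was 0.75 without KO replicate 2, its lowest array. DKO hearts lay 1.59 above control (adjusted p = 0.0136 in limma). Notum also lies on chromosome 11, 11.7 Mb beyond the start of Axin2, and is 1 of the 15 probes of the window above. Tnfrsf19, a receptor known as Troy, read 10.17, 10.08, 10.59 and 10.71 in DKO hearts and 10.12, 9.57 and 9.87 in KO hearts, where replicate 1 overlapped the DKO range. It differed by 0.53, and DKO hearts lay 0.61 above control (adjusted p = 0.0205 in limma).

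Lef1, a transcription factor of the pathway, Apcdd1, a Wnt inhibitor at the cell surface, Dkk1, a secreted inhibitor, and Cdx1, a homeobox gene, made up the 8 genes, with differences of 0.61, 0.67, 0.57 and 0.52, and each had DKO arrays within the KO range. Myc was the negative member, at -0.04, with 7.77 to 8.15 in DKO hearts and 7.98 to 8.05 in KO hearts. Ccnd1, cyclin D1, differed by 0.26 with all arrays and by 0.01 without KO replicate 2.

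Against control hearts, 4 of the 15 were called higher in DKO hearts, namely Sp5, Notum, Tnfrsf19 and Myc, and 0 lower, beside 6.68% of all kept probes called higher and 6.5% lower. In KO hearts 1 (Myc) was called higher and 1 (Nkd2) lower against control, beside 3.59% and 3.96% of all kept probes. In hetDKO against control hearts the list had smaller values, with a median difference of 0.22 and 12 of 15 positive. Of the 15, 1 (Notum, difference 0.88) had an unadjusted p under 0.05. By their labels, these 2 groups differ in Cre and in 1 floxed Rbpj allele as well as in Axin2. The part of Axin2 loss alone cannot be told apart there. No probe was called between hetDKO and control hearts (0 of 14058, 0%, in limma), where 547 (3.89%) had an unadjusted p under 0.05, 1.9% higher and 1.99% lower. That comparison shares no array with DKO against KO. DKO minus KO was also tested against hetDKO minus control. In that test 0 of 15 passed the adjusted threshold and 1 had an unadjusted p under 0.05, beside 0.00711% and 5.05% of all kept probes. The list was therefore not shown to differ between the 2 comparisons.

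**Figure D2:**
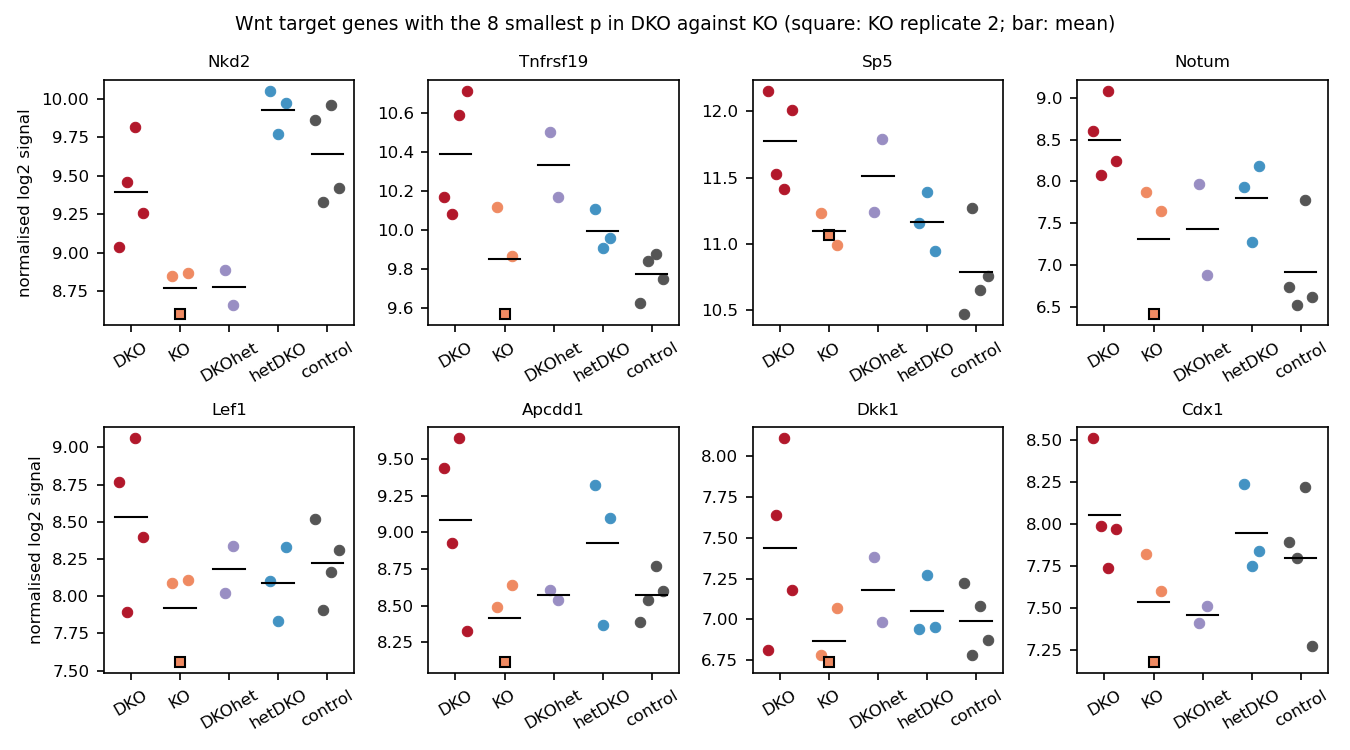
Normalised log2 signal of the 8 Wnt target genes with the smallest p in DKO against KO hearts, by group, 1 point per array (square, KO replicate 2; bar, group mean). KO replicate 2 is the lowest KO array for all 8 genes except Sp5, and DKO means lie above KO means in each panel.

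Wnt ligands, receptors and other components showed less. Of 54 measured components (74 listed), 0 were called, the median was 0.13, and 38 were positive. At an unadjusted p under 0.05, 4 had more signal and 1 less in DKO hearts, beside 2.7% and 2.31% of all kept probes. Leaving out KO replicate 2 gave a median of 0.04 with 30 of 54 positive. Wnt1, a ligand of the neural tube and not a usual product of heart muscle, was the member with less signal: it read 6.19, 5.73, 6.64 and 6.76 in DKO hearts, with detection on 2 of 4, and 8.02, 8.53 and 7.61 in KO hearts. The groups did not overlap and differed by -1.72 (adjusted p = 0.858 in limma). Its hetDKO minus control difference, on other arrays, was -1.19 (unadjusted p = 0.0175), and control hearts spread from 5.78 to 8.18. Wnt2, a ligand of the venous pole, spanned 7.81 to 12.07 in DKO hearts and 7.55 to 10.81 in KO hearts, a difference of 1.51 within a wide overlap. Ror1, a receptor for noncanonical Wnts, differed by 0.77, Apc, the scaffold partner of Axin proteins, by 0.32 and Wnt10a, a ligand, by 0.42. Of the 4 components with more signal, the count was 1 without KO replicate 1 and 2 without KO replicate 2.

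No muscle gene was called between DKO and KO hearts. Among 26 sarcomere genes, 28 chamber, conduction and calcium genes, 20 cardiac transcription factors and 8 smooth muscle genes, 0 were called and 0 had an unadjusted p under 0.05 in either direction. These counts use the brightest probe of each gene. The list medians, 0.07, 0.09, 0.09 and 0.04 with all arrays, moved with single arrays: 0.23, 0.16, 0.24 and 0.14 without KO replicate 2, and -0.18, -0.04, 0.02 and 0.02 without KO replicate 1. In that last case 19 of the 26 sarcomere genes were negative, 2 of them at an unadjusted p under 0.05. The mean over the sarcomere genes lay between 10.66 and 11.27 on the DKO arrays and between 10.28 and 11.10 on the KO arrays, with KO replicate 1 lowest and the groups overlapping. Ttn, the giant spring protein of the sarcomere, showed the spread within groups: 8.21, 8.81, 7.73 and 10.42 in DKO hearts and 6.83, 8.24 and 8.66 in KO hearts. Ankrd1, a stretch-responsive nuclear protein, differed by 0.55 with overlapping arrays, and Actn2, the Z-disc actinin, by 0.35.

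Gja5, the connexin 40 gene of chamber muscle and a gene that fell in KO hearts, was the chamber gene with the smallest p. It read 7.71, 7.75, 7.04 and 8.02 in DKO hearts and 6.60, 7.15 and 7.59 in KO hearts, against 9.58 to 9.94 in control hearts. DKO and KO arrays overlapped and differed by 0.51 (adjusted p = 0.976 in limma), and the other Gja5 probes by 0.31 and -0.17. Against control, the differences were -2.13 for DKO hearts and -2.65 for KO hearts. Gja1, connexin 43, was the chamber gene without overlap, at 14.56 to 14.76 in DKO hearts and 14.37 to 14.55 in KO hearts (difference 0.20). Among transcription factors, Tbx3, a repressor of the chamber programme, differed by 0.38, Gata6 by 0.39 and Smyd1, a muscle methyltransferase, by -0.39, all with overlap. A dimmer Tbx3 probe differed by 0.55 with an unadjusted p under 0.05, and the dimmest by 0.21. Acta2, smooth muscle actin, differed by 0.19 and Cald1, caldesmon, by 0.41.

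Matrix gene values in DKO against KO hearts depended on single arrays of both groups. Of 45 matrix protein genes measured, 0 were called, 40 were positive and the median was 0.20. At an unadjusted p under 0.05, 5 had more signal in DKO hearts (Col5a1, Fbn2, Vcan, Col1a2 and Col4a5) and 0 less, beside 2.7% and 2.31% of all kept probes. With DKO replicate 3 left out, 2 had more signal at that p, 31 were positive and the median was 0.07. With KO replicate 2 left out, 0 had more signal and 1 had less, 30 were positive and the median was 0.06. The 5 became 11 without KO replicate 3, with a median of 0.38, and 2 without DKO replicate 4 or KO replicate 1. The list mean was 9.96, 9.91, 10.45 and 10.05 on DKO arrays and 9.79, 9.54 and 10.19 on KO arrays, so KO replicate 3 lay inside the DKO range.

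Col5a1, a fibrillar collagen chain, read 12.21, 12.08, 12.40 and 12.31 in DKO hearts and 11.83, 11.33 and 12.13 in KO hearts, with a difference of 0.49 that was 0.27 without KO replicate 2. Vcan, the proteoglycan of cardiac jelly, read 7.29, 7.64, 6.59 and 7.92 in DKO hearts and 6.69, 6.46 and 6.82 in KO hearts, a difference of 0.71 with overlap. Col1a2, a chain of type I collagen, was not above background on any KO array and was detected on 2 DKO arrays, with 6.39, 5.63, 8.81 and 7.32 on the 4 DKO arrays, so that DKO replicate 3 stood highest. Fbn2, a microfibril protein, was detected on 3 DKO arrays and on 0 KO arrays, with DKO hearts at least 1.21-fold higher than the KO bound, the lowest detected signal of each KO array.

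Of 23 matrix enzymes and inhibitors, 3 had more signal in DKO hearts at an unadjusted p under 0.05 and 0 less, beside 2.7% and 2.31% of all kept probes. The median of 0.09 was 0.024 without DKO replicate 3 and changed sign to -0.06 without KO replicate 2, when 0 passed that p. Adamts1, a protease that cuts versican, read 7.41, 7.24, 7.44 and 6.79 in DKO hearts and 6.82, 5.64 and 6.75 in KO hearts, with KO replicate 2 far below the others. Loxl2, a lysyl oxidase that cross-links collagen, read 10.51, 10.67, 10.76 and 10.68 in DKO hearts and 10.24, 10.08 and 10.56 in KO hearts. It had risen in KO against control hearts by 0.83, and DKO hearts lay 1.19 above control. Plod1, a lysyl hydroxylase, differed by 0.26 without overlap. Cushion mesenchyme, a matrix-making tissue of the valves, was read from its own list. Of 12 genes, 2 (Msx1, difference 0.45, and Pdgfra, 0.30) had more signal at an unadjusted p under 0.05, beside 2.7% of all kept probes. In that list 11 were positive and the median was 0.26 (0.18 without KO replicate 2). What part the cell makeup had in the matrix values was not tested.

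Blood genes had the widest differences of the lists and less signal in DKO hearts. Of 23 erythroid genes measured, 0 were called, 22 were negative and the median was -1.16. At an unadjusted p under 0.05, 11 had less signal in DKO hearts and 0 had more, beside 2.31% and 2.7% of all kept probes. With KO replicate 2 left out all 23 were negative and the median was -0.86, while 1 had an unadjusted p under 0.05. That count was also 1 without KO replicate 1, 4 without DKO replicate 2 or DKO replicate 4, and 17 without KO replicate 3. The mean of the list was 10.95, 9.47, 10.30 and 9.93 on the DKO arrays and 11.86, 11.60 and 10.36 on the KO arrays, so KO replicate 3 lay among the DKO arrays. The hetDKO hearts spread from 10.16 to 11.34 and control hearts from 10.21 to 11.73, overlapping both groups. In whole hearts, fewer blood cells and less of these transcripts per cell cannot be told apart, and neither can the blood left in the heart at dissection, which the labels do not describe.

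Single erythroid genes repeated that pattern. Alas2, the first enzyme of heme synthesis in red cells, read 13.06, 10.01, 11.63 and 10.72 in DKO hearts and 14.22, 13.95 and 11.97 in KO hearts, a difference of -2.02 (standard error 0.80, adjusted p = 0.976 in limma). Nfe2, an erythroid and megakaryocyte transcription factor, read 10.15, 7.92, 8.65 and 8.17 in DKO hearts and 11.53, 11.26 and 9.69 in KO hearts, a difference of -2.11 with DKO replicate 1 above KO replicate 3. Tal1, a factor of blood formation, differed by -1.16 and Slc4a1, the anion exchanger of red cells, by -1.56. Gata1, the main erythroid transcription factor, was detected on 0 DKO arrays and on 2 KO arrays, with DKO hearts at least 1.30-fold lower. Among the embryonic globins, near the top of the scale, Hbb-y differed by -0.17 and Hbb-bh1 by -0.10. Hba-x differed by -0.59 (unadjusted p = 0.0525 in limma), with 15.27 ± 0.61 in DKO hearts and 15.85 ± 0.14 in KO hearts.

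All 6 measured heme synthesis enzymes were lower on average in DKO hearts, 5 of them at an unadjusted p under 0.05, beside 2.31% of all kept probes. Their median was -0.87 (-0.86 with 2 genes at that p without KO replicate 2, -0.60 with 1 gene without KO replicate 1). Cpox, coproporphyrinogen oxidase, read 8.22, 6.96, 8.47 and 7.61 in DKO hearts and 10.47, 9.91 and 8.50 in KO hearts, a difference of -1.81 (adjusted p = 0.858 in limma) in which the highest DKO and the lowest KO array nearly touch. Alad, the second enzyme of the pathway, differed by -0.90 and Uros by -0.83.

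The medians of these 2 lists differed between the beadchips. Odd-numbered DKO and KO arrays were on beadchip 1 and even-numbered on beadchip 2. The erythroid median was -0.47 within beadchip 1, with 0 genes at an unadjusted p under 0.05, and -1.93 within beadchip 2, where KO replicate 2 was the only KO array. The heme median was -0.42 within beadchip 1 and -1.40 within beadchip 2. The beadchip and KO replicate 2 cannot be told apart in this gap between the beadchips. With beadchip as a block the medians were -1.08 and -0.81.

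White blood cell and platelet genes were the blood list in which KO arrays stood together. Of 10 measured genes (31 listed), 4 had less signal in DKO hearts at an unadjusted p under 0.05 and 0 more, beside 2.31% and 2.7% of all kept probes. In the list 9 were negative and the median was -1.15. The groups did not overlap for 5 of 10, against 2.48% of all kept probes that were lower without overlap. The list mean was 7.35, 6.74, 7.24 and 6.95 on DKO arrays and 8.01, 8.42 and 8.36 on KO arrays. With KO replicate 2 left out the median was -0.85 and 3 genes had an unadjusted p under 0.05. Within beadchip 1 the median was -0.87, with 6 genes at that p. The hetDKO hearts read 6.95 to 7.61 and control hearts 6.87 to 7.51, close to the DKO arrays, while the 2 DKOhet arrays read 9.31 and 6.80.

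Plek, pleckstrin of platelets and leukocytes, was not above background on any DKO array, at 5.63 to 5.94, and read 7.69, 7.63 and 8.31 in KO hearts, with DKO hearts at least 2.63-fold lower (adjusted p = 0.976 in limma). Ppbp, a platelet chemokine, read 6.45, 5.27, 6.99 and 5.36 in DKO hearts and 8.23, 7.78 and 9.23 in KO hearts, a difference of -2.40 without overlap, with detection on 1 of 4 DKO arrays and 3 of 3 KO arrays. Both were far apart between the DKOhet arrays, at 9.76 and 5.67 for Plek and 10.73 and 5.72 for Ppbp. Pf4, platelet factor 4, differed by -2.11 (adjusted p = 0.976 in limma), with SDs of 1.54 in DKO and 1.05 in KO hearts. Laptm5, a lysosomal protein of blood cells, differed by -1.06 and Coro1a, an actin regulator of leukocytes, by -1.15, both without overlap. Of 3 further genes named for their small p, Lyl1, a factor of blood progenitors, differed by -1.39, Il4, a cytokine gene detected on 2 of 4 DKO arrays, by -1.47 and Dennd1c by -1.03.

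**Figure D3:**
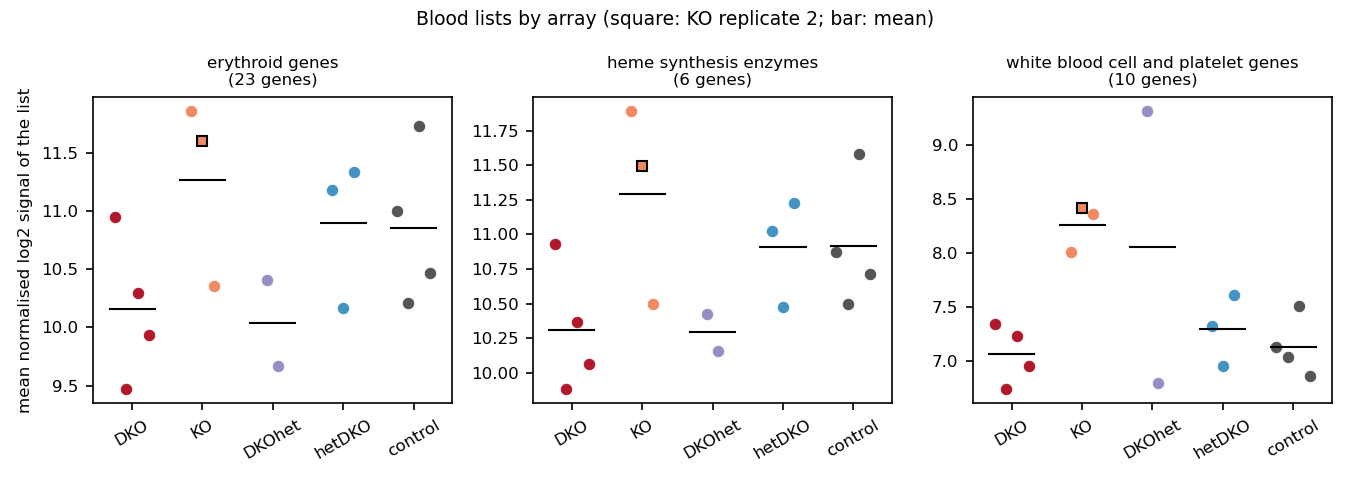
Mean normalised log2 signal of the erythroid, heme synthesis and white blood cell and platelet lists on each array by group (square, KO replicate 2; bar, group mean). KO replicate 3 lies among the DKO arrays for the first 2 lists, and all 3 KO arrays lie above all 4 DKO arrays for the third.

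**Figure D4:**
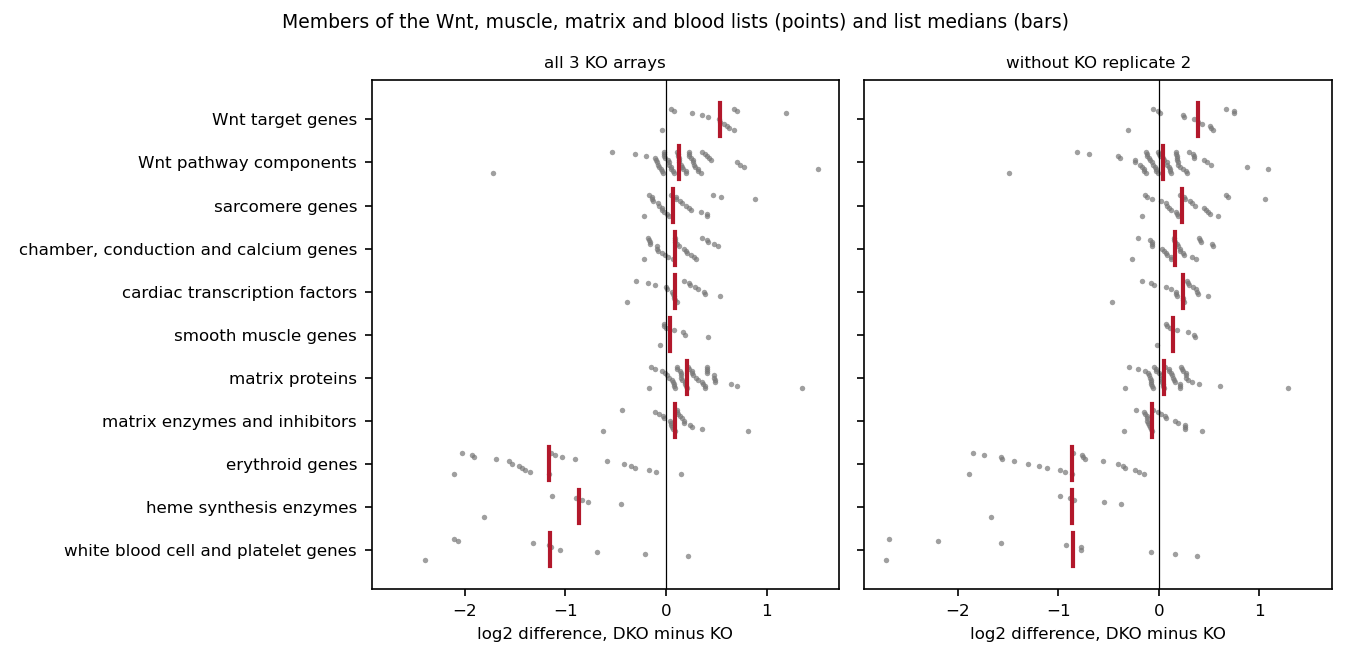
DKO minus KO log2 difference of each measured member of the Wnt, muscle, matrix and blood lists (points) with list medians (bars), with all KO arrays on the left and without KO replicate 2 on the right. The Wnt target median is 0.53 on the left and 0.39 on the right, the matrix protein median 0.20 and 0.06, and the erythroid median -1.16 and -0.86.

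The KO changes were followed into the DKO hearts. Of the 1061 probes called in KO against control hearts, 505 higher and 556 lower, 816 were also called in DKO against control hearts in the same direction, 0 in the opposite direction, and 245 were not called. The 2 comparisons share the control arrays. The 10 largest KO changes show it gene by gene. Chac1, an enzyme of the amino acid stress response, lay 4.45 above control in DKO hearts and 4.15 above control in KO hearts, with 10.90 to 12.76 on DKO arrays and 10.65 to 11.90 on KO arrays. Nrn1, neuritin, read 9.53 to 10.65 in DKO hearts and 9.43 to 10.17 in KO hearts, against 5.80 to 6.94 in control hearts, where it was detected on 1 of 4 arrays. Bhlhe40, a transcription factor induced by low oxygen, lay 3.23 above control in DKO and 3.22 in KO hearts. Ndrg1 lay 3.08 above control in DKO and 3.01 in KO hearts, Stc2, stanniocalcin 2, 2.86 and 2.90, and Adm, adrenomedullin, which was detected on 2 of 4 control arrays, 2.46 and 2.68. Dbx1, a homeobox gene of neural progenitors, read 5.46 to 7.41 in DKO hearts, with detection on 1 of 4 arrays, and 6.33 to 6.97 in KO hearts, with detection on 1 of 3, against 8.92 to 9.82 in control hearts. Among 29 hypoxia and glycolysis genes, 22 were called higher against control in DKO hearts and 22 in KO hearts, beside 6.68% and 3.59% of all kept probes. Their median DKO minus KO difference was 0.01 (-0.04 without KO replicate 2), with 0 genes at an unadjusted p under 0.05.

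Of these 10, Lsm12 and Lgals3 were not called between DKO and control hearts. Lgals3, galectin 3, lay 1.95 above control in DKO hearts and 3.28 above it in KO hearts, with 12.91 on KO replicate 2 against 10.09 and 9.10 on the other KO arrays. Its DKO minus KO difference of -1.33 was -0.22 without KO replicate 2.

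**Figure D5:**
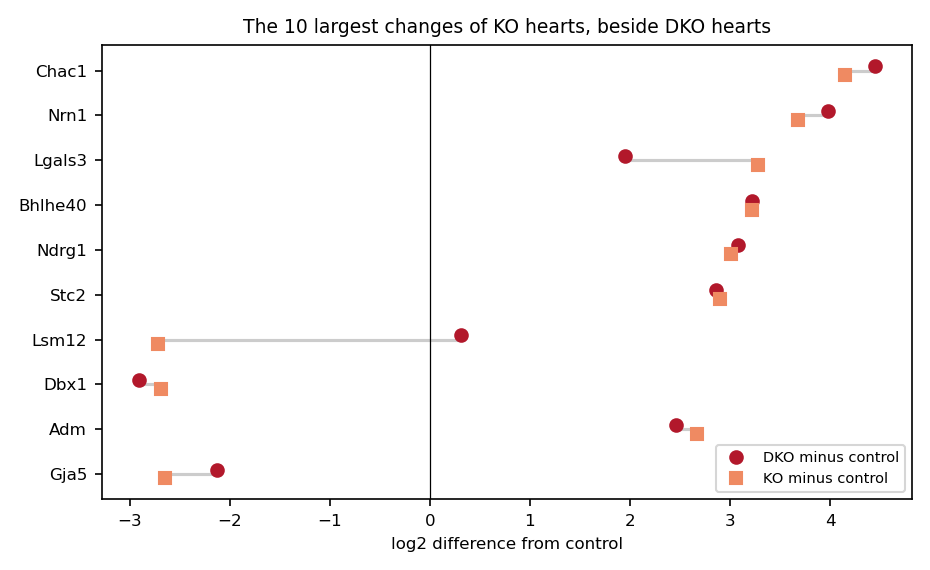
Log2 difference from control of the 10 genes most changed in KO hearts, for DKO hearts (circles) and KO hearts (squares). The symbols nearly coincide for Bhlhe40, Ndrg1 and Stc2, while Lsm12 lies at 0.31 in DKO hearts and -2.72 in KO hearts.

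Moves back towards control were few past a test. Of the 1061 probes, 2 (Mrpl10 and Lsm12) were called in DKO against KO hearts with the opposite sign and 0 with the same sign. At an unadjusted p under 0.05, 91 (8.58%) had the opposite sign and 11 (1.04%) the same sign, beside 5.01% of all kept probes in either direction. In 88 (8.29%) the DKO minus KO difference made up at least 50% of the KO change, and over all 1061 the median share was 8.43%. Probes that were lower in KO hearts made up 63 of the 91, and 28 were higher in KO hearts. Because the KO arrays enter both comparisons with opposite signs, chance highs and lows of those arrays by themselves favour a move back, and 681 of the 1061 (64.2%) had the opposite sign at any size. A choice made without DKO or KO arrays took the 1210 probes called in DKOhet against control hearts (4.3% of all kept probes higher and 4.31% lower). Of these, 23 (1.9%) moved back and 46 (3.8%) moved further at an unadjusted p under 0.05, and 474 (39.2%) had the opposite sign. DKOhet hearts already lack 1 Axin2 copy, so probes that turn back with that loss were less likely to be chosen. The called probes of Mrpl10 and Lsm12 were not in this choice (adjusted p = 0.076 and 0.778 in limma). Both DKOhet arrays were on beadchip 2. Leaving out KO replicate 2, the choice by KO hearts gave 684 probes, of which 42 moved back and 2 further, and the choice by DKOhet hearts gave 14 back and 15 further.

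Beyond chromosome 11, the genes with the smallest p among moves back were Aqp8, Hccs, Rgs10, S100a1 and Pcdh7. Aqp8, a water channel, was not above background on any DKO array, at 5.80 to 6.42, and read 7.94, 7.47 and 6.86 in KO hearts against 6.02 to 6.87 in control hearts, so that DKO hearts lay at least 1.92-fold below KO hearts, and a second Aqp8 probe differed by -0.72 without overlap. Hccs, which attaches heme to cytochrome c, read 8.39, 8.61, 8.32 and 8.71 in DKO hearts and 8.06, 8.09 and 7.80 in KO hearts, and control hearts at 8.41 to 8.69 lay with the DKO arrays. Pcdh7, a protocadherin, read 8.86, 9.41, 9.26 and 8.92 in DKO hearts and 8.71, 8.30 and 8.57 in KO hearts, so that the difference of 0.59 was 90.8% of the size of the KO change. S100a1, a calcium-binding protein of heart muscle, read 9.23 to 9.98 in DKO hearts, 10.04 to 10.93 in KO hearts and 8.79 to 9.24 in control hearts, which left DKO hearts 0.68 above control (adjusted p = 0.0336 in limma). Rgs10, a regulator of G protein signalling, differed by -0.95 with overlap. Junb, an immediate early transcription factor, read 7.67 to 8.27 in DKO hearts and 8.45 to 8.54 in KO hearts, and its difference of -0.52 was 41.7% of the size of its rise in KO hearts.

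Moves further from control included Vldlr, the very low density lipoprotein receptor. Its brightest probe read 11.61, 11.90, 12.16 and 12.20 in DKO hearts, 11.40, 11.16 and 11.75 in KO hearts and 8.57 to 9.40 in control hearts. DKO replicate 1 lay within the KO range, and the difference of 0.53 (adjusted p = 0.976 in limma) was 0.39 without KO replicate 2. A second probe differed by 0.71. Btg4 read 7.49 to 7.66 in DKO hearts, 6.82 to 7.45 in KO hearts and 6.35 to 6.96 in control hearts. Eef1akmt1, a methyltransferase that acts on a translation elongation factor, read 9.81 to 10.04 in DKO hearts, 10.09 to 10.49 in KO hearts and 10.47 to 11.01 in control hearts. Ube2n, a ubiquitin-conjugating enzyme, Noc4l, of ribosome assembly, and Mrm3, of mitochondrial rRNA methylation, differed by -0.25, -0.30 (-0.08 on another probe) and -0.29, none past the adjusted threshold.

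Other gene groups gave 0 calls. Endothelial and endocardial genes had a median of 0.09 over 23 genes, and epicardial genes -0.08 over 11, with Krt19, a keratin, 1.63 above control in DKO hearts and 1.93 above it in KO hearts. Notch target genes had a median of 0.01 over 9 genes, of which 0 had an unadjusted p under 0.05, and Hes5, a Notch-induced repressor, was the member with the smallest p, at 7.12 to 8.95 in DKO hearts and 8.74 to 8.98 in KO hearts. Cell cycle genes had a median of -0.04 over 23 genes. Rrm2, a subunit of ribonucleotide reductase, was the cell cycle gene with an unadjusted p under 0.05: it read 10.84, 11.14, 10.64 and 10.76 in DKO hearts and 11.50, 11.86 and 11.10 in KO hearts, and DKO minus control was -1.01 (adjusted p = 0.0013 in limma). Its other probe differed by -0.14 between DKO and KO hearts. Eya1, a factor of pharyngeal and second heart field cells, read 7.64, 7.66, 7.17 and 7.72 in DKO hearts and 6.94, 6.54 and 7.15 in KO hearts without overlap. BMP ligands and targets had a median of 0.09 over 11 genes, which was -0.018 with a replicate block and -0.007 within beadchip 1. It stayed between 0.03 and 0.19 when any 1 of the 7 arrays was left out. Medians of the following lists took both signs over these omissions. Hepatic and gut endoderm genes had a median of -0.20 over 16 genes (-0.41 without KO replicate 1, 0.08 without KO replicate 3, and 0.25 within beadchip 2), and second heart field genes -0.11 over 11 (-0.26 without DKO replicate 4, 0.14 without DKO replicate 3). Neural genes had 0.11 over 11 (-0.011 to 0.18), immediate early genes -0.03 over 11 (-0.12 to 0.04) and amino acid stress genes -0.07 over 25 (-0.16 to 0.08). The same held for the endothelial list (-0.07 to 0.18), the epicardial list (-0.25 to 0.08), the Notch target list (-0.03 to 0.16) and the cell cycle list (-0.08 to 0.03).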

How the data were processed

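Total RNA of whole hearts was extracted, labelled with biotin and hybridised to Illumina bead arrays, per the labels' protocols, and read with BeadStudio, per the submitters' processing notes. The deposited AVG_Signal columns hold linear bead intensity without normalisation, with a deposited detection p-value per probe. The authors' value table, also deposited, holds processed intensity for 14788 probes and correlated at 0.99976 or more with these values per array. Probe symbols came from the platform annotation: 13238 kept probes (94.2%) had 1 symbol and 820 had none.

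Intensities were background-corrected by normexp from detection p-values (limma 3.58.1, R 4.3.3), given an offset of 16, quantile-normalised and turned into log2. One mean per group was fitted over 5 groups and 16 arrays (lmFit and eBayes, 11 residual and 3.52 prior degrees of freedom), with Benjamini-Hochberg adjustment over all kept probes. For genes with several probes, lists used the brightest. Bounds set the dim group at the lowest detected signal of each array. Precision is set by how few arrays there were. The steps were tested on simulated data.

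Named genes were the 15 largest differences in each direction among those called, filled by smallest p, if every array of the brighter group detected them, each called member and the 4 smallest p of each Wnt, muscle, matrix and blood list (2 in other lists), and 10 each of moves back, moves further and largest KO changes. Xist, Tsix and listed Y-linked transcripts were kept from being named genes. The members and lists were chosen with earlier results of these data known. Alternatives covered blocks, beadchips, each array left out, normalisation, background, offset, filter and the authors' table. DKO and KO arrays of the same number deviated together from their group means (r = 0.127, 0.241 and 0.226 for numbers 1, 2 and 3). The number was therefore used as a replicate block in an alternative fit, while the main fit had no block and its p-values do not pair the arrays. Odd and even numbers also differ in beadchip, per the labels. What part the beadchip had in these correlations was not tested.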

Additional observations from a re-analysis of the deposited data

Results flagged for a closer look

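Among 226 pairs of a named gene and a group of 4 arrays, 12 had 1 array far from the others by Dixon's criterion, which chance alone gives in about 1 of 20 groups. Among DKO arrays, DKO3 read 7.82 for Gm7609 (others 8.68 to 8.85), 7.17 for Eya1 (others 7.64 to 7.72), 9.62 for Mcm7 (others 10.20 to 10.28) and 7.49 for Btg4 (others 7.65 to 7.66). DKO1 read 6.19 for Gata1 (others 5.51 to 5.60), which was not detected on any DKO array. Among control arrays, control4 read 8.10 for Fam214b (others 7.81 to 7.85), 7.19 for Adamts1 (others 6.42 to 6.50), 8.84 for Laptm5 (others 9.80 to 9.87), 8.36 for Zfp36 (others 8.66 to 8.72), 6.12 for Grem1 (others 6.48 to 6.54) and 6.94 for Nrn1 (others 5.80 to 5.90). Control3 read 6.76 for Ppbp (others 5.31 to 5.44).

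For Mrpl10, the DKO minus KO difference was 1.84 larger than the hetDKO minus control difference (adjusted p = 0.0201 in limma). This call was lost with a replicate block and without any 1 of the 7 DKO and KO arrays, when 0 probes passed.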

How the results depend on the processing

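The count of 2 called probes in DKO vs KO became 1 with a replicate block, in which Lsm12 was lost and Mrpl10 kept. It was also 1 when beadchip was a block, without background correction, without the filter and on the authors' table, 4 within beadchip 1, 59 within beadchip 2, and 1 to 4 over the omissions of 1 array. Using only the KO and DKO arrays, Lsm12 was lost and Plek (-2.07) was called. KO vs control gave 253 called probes within beadchip 1, 95 within beadchip 2 and 591 to 1136 over omissions. KO changes that move back in DKO (unadjusted p under 0.05) numbered 146 when beadchip was a block, 28 within beadchip 1, and 42 to 133 over omissions (48 without DKO replicate 2, 51 without DKO replicate 4). The difference of the Axin2 effects, 1 called probe, gave 0 with a replicate block and without any 1 of the 7 arrays, 4 within beadchip 1 and 14 within beadchip 2. The smooth muscle median ran from 0.011 to 0.14 over omissions; the white blood cell and platelet median from -1.39 to -0.85, and was -1.56 within beadchip 2 and -0.85 both without background correction and on the authors' table. Signs turned for some genes, whose main differences were 0.41 for Nkx2-1, 0.38 for Mcm7 and 0.27 for Ngfr and smaller for the others. Within beadchip 2, Lmod1 was -0.0125, Ngfr -0.0564 and Stc2 0.27. Within beadchip 1, Nkx2-1 was -0.11, Zfp36 0.0915, Mcm7 -0.0538 and Bhlhe40 -0.0896. Bhlhe40 was -0.0264 with a replicate block, and Stc2 was 0.0048 with median scaling. Over omissions, Chac1 ran from -0.0637 to 0.57, Bhlhe40 from -0.14 to 0.15, Ndrg1 from -0.19 to 0.29, Stc2 from -0.35 to 0.19 and Dbx1 from -0.58 to 0.0736. The causes were not tested. Of 113 named results, 113 kept direction and call under cyclic loess and with an offset of 50, and the replicate block changed no other call among them.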

Other observations

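The 57 probes called lower in DKO hearts within beadchip 2, where KO replicate 2 is the single KO array, included Lyz2, Lyz1, Mgp, Rhox6 and S100a6, while the 2 called higher were Hoxc6 and Col18a1. These genes and the next were chosen after their values were seen. Mak16, a factor of ribosome assembly, was split within both groups: it read 10.92, 6.74, 10.68 and 10.75 on the DKO arrays and 6.99, 11.73 and 6.42 on the KO arrays.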
